A study of Mus musculus with 25 samples.

Results

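The 10 genes examined here encode the route from mitochondrial citrate to palmitate and the proteins that feed or adjust it: Slc25a1, Acly, Acss2, Aacs, Acaca, Acacb, Fasn, Me1, Thrsp and Mid1ip1. They were chosen by name, as every probe whose gene name on the array was a member, which gave 25 probes for 10 of the 37074 gene names among 56605 distinct gene probes. All 25 probes passed the filter on dim spots, so that no member was lost, and 22 of them were well above background on all 25 arrays. Transcript levels in perigonadal white adipose tissue (pgWAT) were measured with 1 single-colour Agilent array per male C57BL6/J mouse, after 24 h of fasting and 18 h of refeeding with food and with water containing 20% glucose, a treatment that all groups shared. ChREBPβ KO mice (labelled ChREBPbeta_KO, 6 arrays) lacked the exon used only by the shorter isoform of the glucose-responsive transcription factor ChREBP, and total ChREBP KO mice (ChREBPtotal_KO, 5 arrays) were Mlxipl-null and lacked both isoforms. Each was set against the wild types labelled for its own line, ChREBPβ WT (ChREBPbeta_WT, 7 arrays) and total ChREBP WT (ChREBPtotal_WT, 7 arrays). Both deletions were in the whole animal, not in adipocytes alone, and the ages of the mice were not given in the sources used here. The comparisons asked what becomes of the pathway without ChREBPβ, without both isoforms, and between the wild types of the lines.

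Fatty acid synthesis starts when citrate leaves the mitochondrion through the carrier Slc25a1 and is split by ATP citrate lyase (Acly) into oxaloacetate and acetyl-CoA. Acetyl-CoA can also be made in the cytosol from acetate, by Acss2, and acetoacetate can be activated for lipid synthesis by Aacs. The acetyl-CoA carboxylases Acaca and Acacb turn acetyl-CoA into malonyl-CoA, which the multifunctional enzyme Fasn condenses into palmitate with NADPH, part of which is supplied by the cytosolic malic enzyme Me1. Thrsp and its paralogue Mid1ip1 are small proteins that bind and stimulate this machinery. In fat and liver the pathway is switched on by feeding, through ChREBP, which responds to glucose metabolites, and through SREBP-1c, the product of Srebf1, which responds to insulin.

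RefSeq windows of 300 bases, from 250 before to 50 after an annotated start site, were at hand for all 10 genes. The windows of Slc25a1, Fasn, Thrsp and Acaca are shown because they span the range from several matches to none, and because the transcripts of these genes differed in how they behaved below. Capitals mark the E box CACGTG, which ChREBP and Mlx bind as a spaced pair, and the NF-Y box CCAAT, on either strand, so that ATTGG is a CCAAT of the other strand.
Slc25a1 (chr16:17928170-17928469, GRCm38.p6, minus strand): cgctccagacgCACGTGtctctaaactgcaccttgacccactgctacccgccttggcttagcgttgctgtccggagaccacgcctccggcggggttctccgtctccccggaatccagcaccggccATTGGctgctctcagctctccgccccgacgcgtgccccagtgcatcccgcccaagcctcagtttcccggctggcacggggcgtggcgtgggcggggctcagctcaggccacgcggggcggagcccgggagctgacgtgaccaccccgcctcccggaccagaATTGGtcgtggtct
Fasn (chr11:120824498-120824797, GRCm38.p6, minus strand): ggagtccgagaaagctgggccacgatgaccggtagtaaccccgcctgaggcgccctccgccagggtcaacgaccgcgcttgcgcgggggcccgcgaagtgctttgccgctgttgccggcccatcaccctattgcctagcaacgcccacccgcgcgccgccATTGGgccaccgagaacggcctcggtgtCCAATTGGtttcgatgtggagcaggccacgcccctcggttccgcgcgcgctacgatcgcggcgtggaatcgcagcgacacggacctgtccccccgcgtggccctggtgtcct
Thrsp (chr7:97417501-97417800, GRCm38.p6, minus strand): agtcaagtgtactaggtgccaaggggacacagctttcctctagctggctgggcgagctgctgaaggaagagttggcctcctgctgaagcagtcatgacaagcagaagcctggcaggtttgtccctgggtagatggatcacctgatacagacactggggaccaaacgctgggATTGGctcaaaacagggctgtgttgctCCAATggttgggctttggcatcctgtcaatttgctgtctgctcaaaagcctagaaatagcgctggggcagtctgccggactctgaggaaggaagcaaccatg
Acaca (chr11:84195188-84195487, GRCm38.p6, plus strand): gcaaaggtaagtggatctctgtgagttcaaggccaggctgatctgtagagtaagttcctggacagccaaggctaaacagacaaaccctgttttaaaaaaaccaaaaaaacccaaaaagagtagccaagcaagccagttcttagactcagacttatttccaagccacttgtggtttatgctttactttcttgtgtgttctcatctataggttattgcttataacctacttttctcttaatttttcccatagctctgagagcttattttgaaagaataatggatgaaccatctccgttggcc

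An E box was found in 1 member, Slc25a1, where its first letter lies 239 bases before the start site, and in 7.15% of all 32851 windows. The carbohydrate response element, searched as a pair of exact E boxes at its usual spacing, was in 0 member windows and in 0 of all windows, and the sterol regulatory element TCACCCCAC was in 0 member windows and in 0.551% of all windows. A CCAAT box was found in 7 of 10 members, Slc25a1, Acly, Acss2, Acacb, Fasn, Me1 and Thrsp, and in 41.1% of 27025 genes. The Fasn window held 3, of which 2 overlap as CCAATTGG, and the Thrsp window held 2. The GC-rich Sp1 box GGGCGG was found in 5 members (Slc25a1, Acly, Acss2, Me1 and Mid1ip1) and in 38.2% of genes. Both strands were searched. Me1 has a pair of annotated windows, and its CCAAT box is in one and its Sp1 boxes in the other. These are matches of letters within short windows, and sites further from the start were not searched. Starts of these genes other than those annotated here were not searched either, so a match or its absence describes the window alone. This holds for the empty window of Acaca, which has probes designed on more than 1 transcript.

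The arrays had median raw intensities of 84 to 127 with local backgrounds of 15 to 22, and 0 spots were saturated. Mlxipl, the targeted gene, had on its brightest probe a log2 level of 15.64 to 16.28 (median 16.01) in total ChREBP WT, and of 14.08, 14.19, 14.25, 14.25 and 14.29 in total ChREBP KO. It spanned 14.70 to 15.43 in ChREBPβ WT and 14.02 to 14.70 in ChREBPβ KO. All 6 ChREBPβ KO arrays lay below all 7 ChREBPβ WT arrays, but the difference of -0.73 had a limma adjusted p of 0.14. The other Mlxipl probes differed by -0.66 (adjusted p 0.00109) and 0.08 (adjusted p 0.687) in total ChREBP KO. Whether any of the 3 lies in a deleted part of the gene was not determined, since no annotation of the array's build was used. Transcripts of liver plasma proteins and enzymes were also present, at levels that differed most between the lines. Of 14 hepatocyte markers, 0 were called in ChREBPβ KO (limma), against 0.00772% of all genes. In total ChREBP KO 1 was called lower and 1 higher. The mean level of 14 hepatocyte markers, all tested, spanned 12.37 to 15.89 in ChREBPβ WT, 11.01 to 15.36 in ChREBPβ KO, 8.23 to 13.01 in total ChREBP WT and 8.13 to 8.94 in total ChREBP KO, whereas the mean level of 14 adipocyte markers, all tested, had medians over arrays of 15.81, 15.91, 15.89 and 15.94. Of these 14, 4 were called in total ChREBP KO, the insulin-responsive glucose transporter Slc2a4 lower (-1.40, limma adjusted p 1.41e-07) and Lpl (0.55), Plin1 (0.41) and Cidec (0.40) higher. Of 9 tested markers of brown or beige adipocytes 1 was called, Dio2 (2.62, adjusted p 8.28e-05). Of all genes, 9.36% were called in total ChREBP KO. Replicates are separate mice.

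Levels are given as log2 of the quantile-normalised spot intensity, and differences as log2 units from 1 limma model, with terms for group and for wash batch. A gene is described by its brightest probe, and a difference is called at an adjusted p under 0.05 over all 39619 probes. Averaged over the 10 genes, the level per array was 16.31 ± 0.18 (SD, n = 7) in ChREBPβ WT, 16.22 ± 0.16 (n = 6) in ChREBPβ KO, 16.96 ± 0.07 (n = 7) in total ChREBP WT and 15.93 ± 0.12 (n = 5) in total ChREBP KO. The total ChREBP WT arrays (16.81 to 17.03) were all above every other array, and the total ChREBP WT group varied least. In bulk tissue, a lower share of a cell type and less RNA per cell cannot be told apart.

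**Figure D1:**
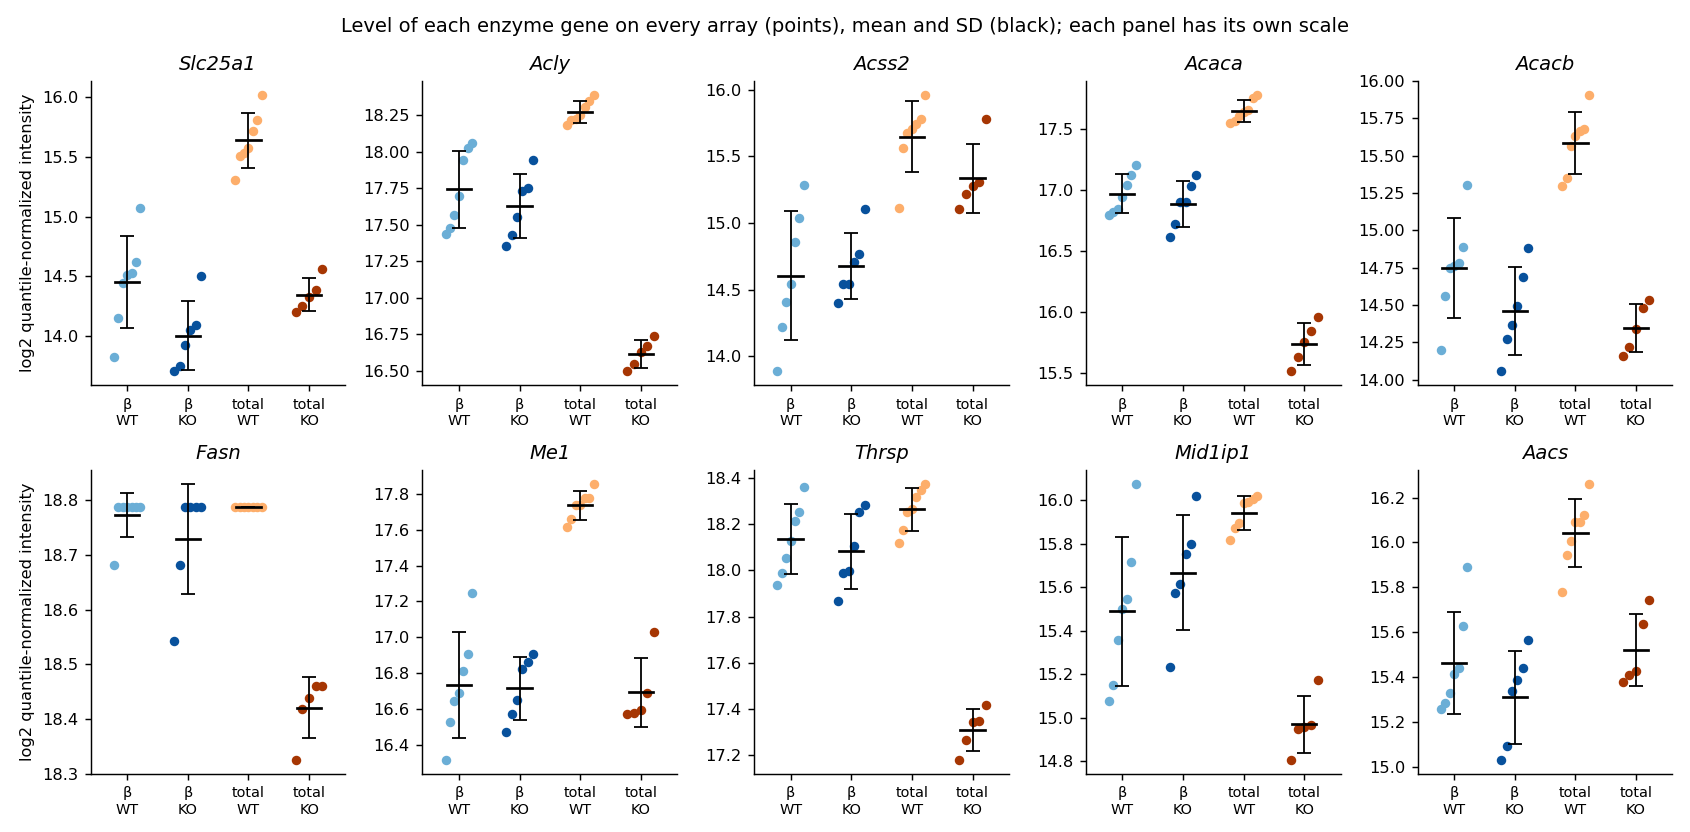
Log2 quantile-normalised intensity of the brightest probe of each gene on all 25 arrays, in ChREBPβ WT and KO (β) and total ChREBP WT and KO (total). Points are arrays, sorted by level within a group and with no order in time, and black lines are the mean and SD. In every panel but that of Acss2 the total ChREBP KO arrays lie below all total ChREBP WT arrays, whereas the ChREBPβ groups overlap in all panels. How many of all genes separate in this way was not counted.

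Loss of both isoforms lowered 9 of the 10 transcripts, by 0.36 to 1.91 log2 units, and left Acss2 short of the threshold. Over all genes, 9.36% were called in this comparison and 3.62% were called lower. The median difference of the 10 genes was -1.02, against 0.02 over all genes. The carboxylase Acaca and the lyase Acly changed most, with 26.7% and 31.5% of the wild-type level remaining on the linear scale.

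The transcripts of both steps of citrate entry were lower. Slc25a1 measured 15.31 to 16.02 (median 15.57) in total ChREBP WT and 14.21, 14.26, 14.33, 14.39 and 14.56 in total ChREBP KO. Every knockout array was thus below every wild-type array, and the level fell by 1.32 (SE 0.16, limma adjusted p 5.08e-06). Acly measured 18.19 to 18.39 (median 18.25) in total ChREBP WT and 16.50, 16.54, 16.63, 16.67 and 16.74 in total ChREBP KO. The spread of either group was small beside the gap between them, and Acly fell by 1.67 (SE 0.11, adjusted p 2.28e-09), a 3.17-fold reduction.

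The transcripts for the side entries of acetyl units behaved differently from each other. Acss2 measured 15.11 to 15.96 (median 15.70) in total ChREBP WT and 15.10, 15.22, 15.28, 15.31 and 15.78 in total ChREBP KO, and the groups overlapped. Its difference of -0.32 (95% interval -0.71 to 0.07, limma adjusted p 0.37) did not pass, and within the 4 wash batches, the sets in which the slides were washed, it ran from -0.51 to 0.06. Aacs, which activates acetoacetate, measured 15.78 to 16.26 in total ChREBP WT and 15.38, 15.41, 15.43, 15.64 and 15.74 in total ChREBP KO. The groups did not overlap, and Aacs fell by 0.54 (SE 0.12, adjusted p 0.00374).

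Both carboxylases fell. Acaca, the cytosolic form that serves synthesis, measured 17.54 to 17.78 (median 17.64) in total ChREBP WT and 15.51, 15.63, 15.75, 15.84 and 15.96 in total ChREBP KO. The lowest wild-type array was more than 1 log2 unit above the highest knockout array, and Acaca fell by 1.91 (SE 0.10, limma adjusted p 2.16e-11), 3.75-fold. Acacb, the form held at the mitochondrial surface, whose malonyl-CoA restrains fatty acid import into mitochondria, measured 15.30 to 15.91 (median 15.63) against 14.16, 14.22, 14.34, 14.48 and 14.54. Again without overlap, Acacb fell by 1.23 (SE 0.15, adjusted p 1.04e-05).

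Me1 measured 17.61 to 17.86 (median 17.74) in total ChREBP WT and 16.57, 16.58, 16.60, 16.69 and 17.03 in total ChREBP KO. A single knockout array, replicate 7, was set off upwards from the other 4, yet it also lay below the wild types, and Me1 fell by 1.05 (SE 0.12, limma adjusted p 2.27e-06). Thrsp measured 18.12 to 18.37 against 17.18, 17.27, 17.34, 17.35 and 17.42 and fell by 0.95 (SE 0.08, adjusted p 3.99e-08). Its paralogue Mid1ip1 measured 15.82 to 16.02 against 14.81, 14.95, 14.96, 14.96 and 15.17 and fell by 0.98 (SE 0.13, adjusted p 1.62e-05). For the pair of stimulating proteins the wild-type and knockout arrays were separate.

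Fasn, the enzyme that builds palmitate, showed the smallest called change. Its level was 18.79 on all 7 total ChREBP WT arrays and 18.32, 18.42, 18.44, 18.46 and 18.46 in total ChREBP KO, and it fell by 0.36 (SE 0.05, limma adjusted p 1.23e-05). The equal wild-type levels come from the scaling: the probe was the second brightest of all tested probes on every total ChREBP WT array, so quantile normalisation gave it the same value on each, and it ranked 9 to 12 in total ChREBP KO. As scanned, the intensity was 412832 to 530381 in total ChREBP WT and 332326 to 384511 in total ChREBP KO, again without overlap. With arrays scaled to their 75th percentile in place of quantile normalisation the fall was 0.30 (adjusted p 0.0333) from the same intensities, and 0.28 (adjusted p 0.0675, no longer called) from the scanner software's background-corrected signal. The ChREBPβ groups also met this level, the top level of the Fasn probe, on 6 of 7 WT and 4 of 6 KO arrays. The Fasn differences between the other groups therefore have little range on this scale.

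**Figure D2:**
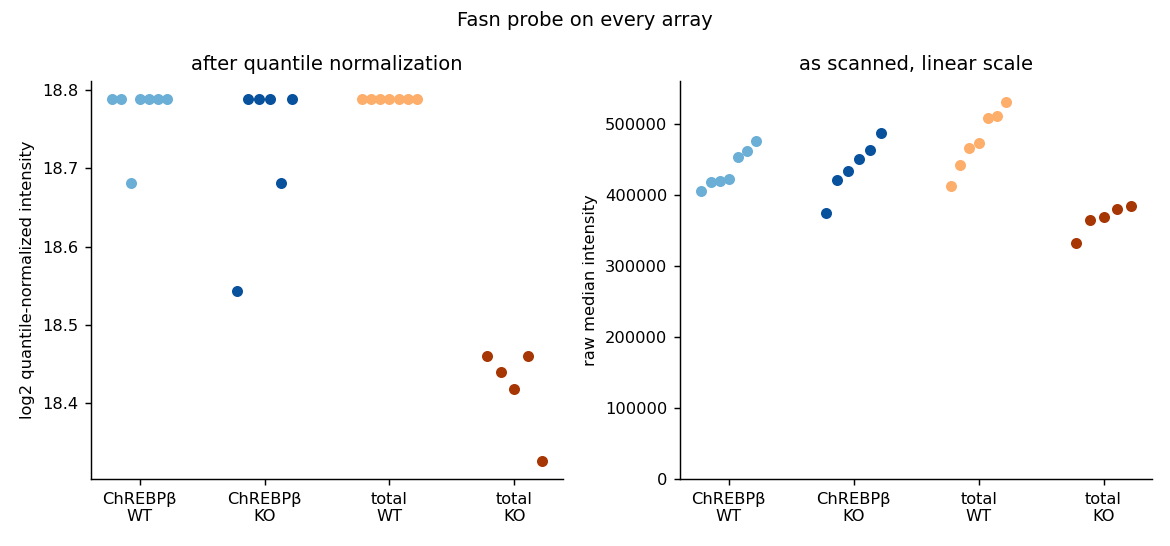
The Fasn probe on all 25 arrays, as log2 quantile-normalised intensity (left) and as raw median intensity on a linear axis from 0 (right). Points are arrays, in the same left-to-right order in both panels. The 7 total ChREBP WT arrays share 1 level after normalisation but spread from 412832 to 530381 as scanned.

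Within each of the 4 wash batches the total ChREBP KO minus WT difference was below 0 for the 9 called genes, for example -2.03 to -1.67 for Acaca and -0.42 to -0.33 for Fasn. Among the knockout arrays, replicate 7 was highest for 9 of 10 genes and replicate 4 was lowest for 7 of 10. Replicate 7 was also the single total ChREBP KO array of its wash batch. The same 9 genes were called whichever array of the series was left out. With a hepatocyte score as a covariate, the mean of the markers after each was scaled to the same mean and spread, the number called was 9. The share of all genes called with this covariate was not counted. The part of the liver signal in these results was otherwise not tested.

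Without ChREBPβ alone, none of the 10 genes was called (limma, 0 of 10). The background was 0.00772%, or 2 of 25908 genes, while 2515 genes and 1 member had an unadjusted p under 0.05. Of the members, 8 were lower and 2 higher on average, with a median of -0.07 against 0.02 over all genes. The member below 0.05 without adjustment was Slc25a1, which measured 13.83 to 15.07 (median 14.51) in ChREBPβ WT and 13.71 to 14.51 (median 13.99) in ChREBPβ KO. The groups overlapped, with 2 of 6 knockout arrays below all wild types, and the difference was -0.45 (95% interval -0.76 to -0.14, unadjusted p 0.00644, adjusted p 0.372). It was negative in all 4 wash batches, from -0.75 to -0.22. Its second probe differed by -0.43 (adjusted p 0.478).

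For the other members the intervals limit how large a difference these arrays leave room for. Acaca measured 16.79 to 17.20 (median 16.94) in ChREBPβ WT and 16.62 to 17.12 (median 16.90) in ChREBPβ KO, a difference of -0.08 (95% interval -0.27 to 0.10). Acly measured 17.44 to 18.06 (median 17.69) against 17.36 to 17.95 (median 17.64), a difference of -0.12 (-0.34 to 0.11). In either gene 2 of 6 knockout arrays lay below all wild types and the rest lay among them. Acacb measured 14.20 to 15.30 (median 14.76) against 14.06 to 14.88 (median 14.43), with a difference of -0.30 (-0.60 to 0.01, adjusted p 0.561), the largest after Slc25a1. Thrsp differed by -0.05 (-0.21 to 0.11), Me1 by -0.01 (-0.25 to 0.22) and Aacs by -0.16 (-0.39 to 0.06). Mid1ip1 and Acss2 lay on the other side of 0, at 0.19 (-0.06 to 0.44) and 0.09 (-0.28 to 0.46). Acss2 differed in sign between wash batches, with -0.48, -0.74, 0.63 and 0.69, and the limma adjusted p values of all 10 members lay between 0.372 and 0.99.

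**Figure D3:**
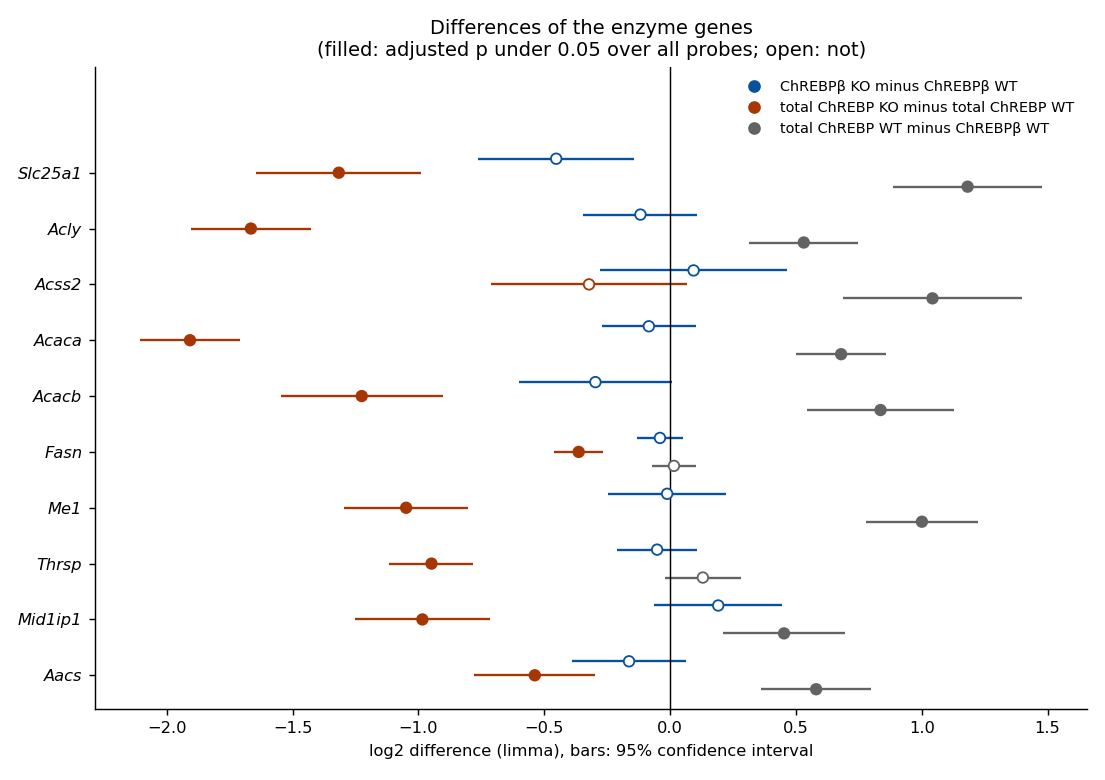
Log2 differences of the 10 genes from limma with their 95% confidence intervals for ChREBPβ KO minus WT (blue), total ChREBP KO minus WT (brown) and total ChREBP WT minus ChREBPβ WT (grey). Filled points have an adjusted p under 0.05. Brown points are filled for 9 genes and lie left of 0, blue points are all open, and 8 grey points are filled and lie right of 0.

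The difference between the effects of the deletions was itself tested as an interaction. It was called for 8 of 10 genes, all with a larger fall in the total ChREBP line, against 3.49% of all genes called and 2.15% called in that direction. The largest was that of Acaca, at -1.82 (SE 0.13, limma adjusted p 1.95e-08), followed by Acly at -1.55 (SE 0.16, adjusted p 2.24e-06). Mid1ip1 (-1.18, adjusted p 0.00022) came next, its point estimates having opposite signs in the lines. Me1 (-1.04), Acacb (-0.93), Thrsp (-0.90), Slc25a1 (-0.86) and Fasn (-0.32) also passed. Aacs (-0.37, 95% interval -0.70 to -0.05, adjusted p 0.283) and Acss2 (-0.42, -0.95 to 0.12, adjusted p 0.587) did not. The call for Slc25a1 (adjusted p 0.0265) rested on few arrays: leaving out ChREBPβ KO replicate 4 or 5, or total ChREBP KO replicate 1 or 4, gave -0.78, -0.84, -0.86 and -0.80 with adjusted p values of 0.051 to 0.0619. The Fasn interaction (adjusted p 0.00379) was lost on both scales without quantile normalisation, with adjusted p values of 0.214 and 0.232 at the same -0.32.

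The wild types of the lines were not alike in this pathway. In total ChREBP WT, 8 of 10 genes were called higher than in ChREBPβ WT, against 22.2% of all genes called and 13.4% called higher. Slc25a1 was 2.27-fold higher (log2 1.18, SE 0.14, limma adjusted p 1.51e-05), Acss2 2.06-fold (1.04, SE 0.17, adjusted p 0.000226) and Me1 2.00-fold (1.00, SE 0.11, adjusted p 4.71e-06). Acacb (0.84), Acaca (0.68), Aacs (0.58), Acly (0.53) and Mid1ip1 (0.45) were also called. Arrays did not overlap between the wild types for Slc25a1, Acly, Acaca and Me1. The share of all genes without such overlap was not counted. Thrsp (0.13, 95% interval -0.02 to 0.28, adjusted p 0.215) and Fasn (0.02, -0.07 to 0.10, adjusted p 0.83) did not pass, and the latter stood at the top level in both groups. Thrsp was called on each of 3 other scales, at 0.19 to 0.23 with adjusted p values of 0.0235 to 0.0336. Its second probe was called on the main scale (0.32, limma adjusted p 0.0496).

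The hepatocyte markers differed more between the wild types than did any member, with 1 exception. Of the 14 markers, 13 were called lower in total ChREBP WT, with differences of -6.06 to -3.35, and Cyp2e1 was not called. Of all genes, 22.2% were called between the wild types in either direction. With the hepatocyte score as a covariate, 7 of 10 members were called higher in total ChREBP WT, and Aacs was lost (0.51, limma adjusted p 0.0805). The share of all genes called with this covariate was not counted, and the 22.2% is from the model without it. The line and the level of these markers cannot be told apart in a comparison of the wild types.

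Levels therefore followed 3 orders among the groups. For Slc25a1, Acacb, Me1 and Aacs, total ChREBP WT stood alone on top, and no step between neighbours among the other 3 groups was called. Me1 averaged 17.74 in total ChREBP WT and 16.74, 16.72 and 16.69 in the rest. Between non-neighbours, Slc25a1 gave -0.45 for ChREBPβ KO minus WT (interval -0.76 to -0.14, limma adjusted p 0.372). Acacb gave -0.39 for total ChREBP KO minus ChREBPβ WT (-0.71 to -0.07, adjusted p 0.0781). Neither was called, but both intervals were wholly negative, so these groups are not shown to be level. In Me1 and Aacs the interval between the outer of the 3 groups held both signs. For Acly and Acaca, total ChREBP WT was highest, the ChREBPβ groups stood between, and total ChREBP KO was lowest, with each step except that between the ChREBPβ groups called. For Fasn, Thrsp and Mid1ip1, total ChREBP KO was lowest and below its nearest neighbour, and no step between neighbours above it was called. The second Thrsp probe instead had the order of Acly and Acaca. On it, total ChREBP WT was above ChREBPβ WT (0.32, limma adjusted p 0.0496) and ChREBPβ KO (0.43, adjusted p 0.0118). Mid1ip1 nevertheless differed between the wild types, which were not neighbours in its order, and the upper Fasn groups shared the top level. Acss2 was the exception, with both total ChREBP groups above both ChREBPβ groups. Across the lines, total ChREBP KO was below ChREBPβ KO for Acly, Acaca, Fasn, Thrsp and Mid1ip1 and above it for Acss2 (0.63, limma adjusted p 0.028), 6 members called against 18.4% of all genes (7.13% lower, 11.3% higher). Set against ChREBPβ WT the same number, 6, was called, 5 lower and Acss2 higher (0.72), against 21% of all genes (7.2% lower, 13.8% higher). Total ChREBP WT exceeded ChREBPβ KO in 7 members, against 24.6% of all genes called and 12.9% called higher. All of these share groups with the comparisons above.

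Acss2 varied more than the rest within ChREBPβ WT, where it measured 13.89 to 15.28 (SD 0.49, n = 7). It spanned 14.40 to 15.10 in ChREBPβ KO. Its other 3 probes gave the same picture of the wild types, with total ChREBP WT above ChREBPβ WT by 1.12 at the least, all called. Total ChREBP KO was above the ChREBPβ groups on them too, but not always called. The brightest of the 3 missed against ChREBPβ KO (0.57, limma adjusted p 0.0858), and the next missed against ChREBPβ WT (0.66, adjusted p 0.0744). In the total ChREBP line they differed by 0.06, -0.51 and -0.64, with limma adjusted p values of 0.916, 0.179 and 0.149. None of the 4 Acss2 probes was called for either deletion.

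Of the 25 probes, 19 were called lower in total ChREBP KO, against 3.47% of all 39619 tested probes, and 0 were called in ChREBPβ KO, against 0.00505%. In all, 7 genes had more than 1 probe. Acaca had 7 (chromosome 11, mm9), of which the brightest (84215093 to 84215152) lies furthest downstream. Its 5 dimmer probes with clear signal had larger differences than the brightest, from -2.86 to -2.31, whereas the dimmest (83944888 to 83944947), designed on another transcript and well above background on 20 arrays, gave -0.03 (limma adjusted p 0.916). The second probe of Acly fell by 2.81, 7.03-fold, against 3.17-fold for the brightest. The second probes of Thrsp, Slc25a1 and Me1 fell by 1.47, 1.42 and 1.23, again each more than the brightest. Acacb went the other way, with -0.77 (adjusted p 0.000168) and -0.39 (adjusted p 0.0945) on its dim probes against -1.23. Of 15 dimmer probes 11 had a lower difference than the brightest of their gene, 2 of them Acss2 probes that were not called, and the exceptions were the dimmest Acaca probe, both dim Acacb probes and 1 Acss2 probe. No member probe shared a run of 20 bases with a probe of another gene. The exon of a probe is not stated, because no annotation of mm9 was used.

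**Figure D4:**
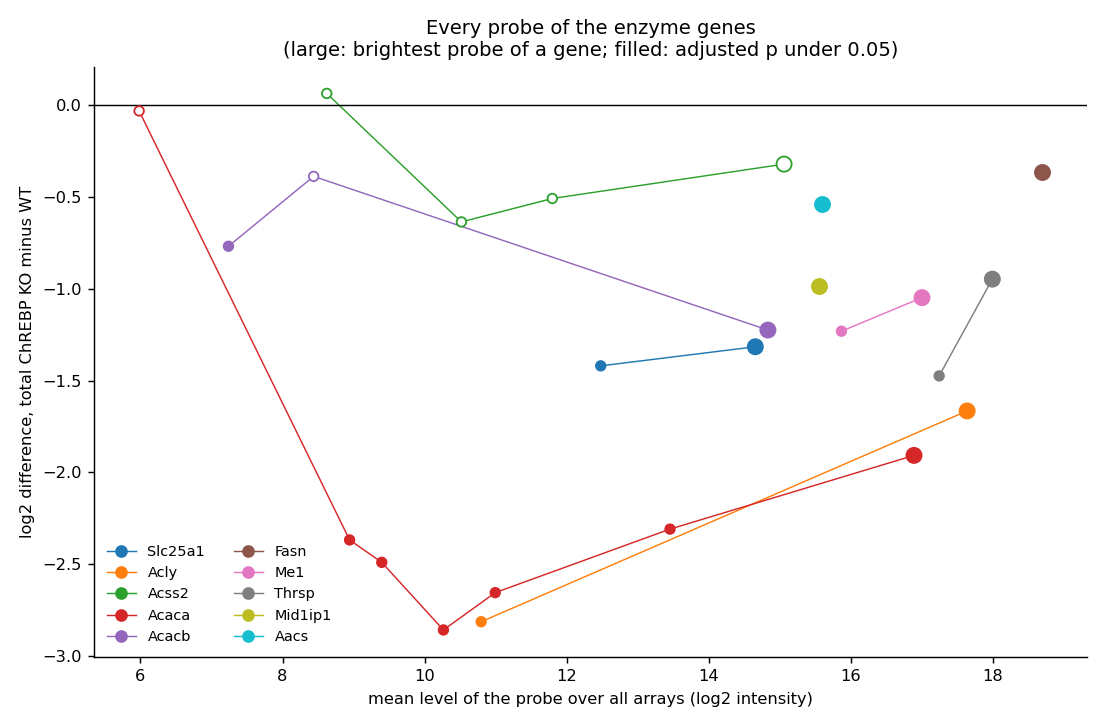
Log2 difference of total ChREBP KO minus WT for all 25 probes against the mean log2 level of the probe over 25 arrays. Lines join probes of a gene, large points are the brightest probe, and filled points have an adjusted p under 0.05. The points of Acaca and Acly run down from -1.91 and -1.67 at the bright end to -2.86 and -2.81 at dimmer probes. At still dimmer probes Acaca comes back up, to -0.03 at its dimmest.

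Across the 25 arrays, with wash batch removed, the members tracked each other to unlike degrees. The correlation of a gene with the mean of the other 9 was highest for Acaca (r = 0.91), Acacb (0.90), Acly (0.90) and Me1 (0.89), and lowest for Fasn (0.67) and Acss2 (0.40). These values describe arrays that fall into groups and share their scaling, and carry no test. By the same measure, the 10 genes most like the mean member profile, out of 18612 named genes compared, were Pdhb, Slc9a5, Cnst, 4930519F09Rik, Gbe1, Pdha1, Tmem79, Ccdc57, Adcy10 and Slc25a32, with r from 0.98 to 0.96. Pdhb and Pdha1 encode subunits of pyruvate dehydrogenase, Gbe1 the glycogen branching enzyme and Adcy10 the soluble adenylyl cyclase. Adcy10 had the widest change of these, with -4.68 in total ChREBP KO. Since the 10 genes were picked for following the member profile on the same arrays, a fall there is largely set by the choice. Mlxipl ranked 75 (r = 0.91) and Srebf1 ranked 112 (r = 0.88).

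The genes upstream, beside and downstream of the pathway were mixed in total ChREBP KO, in contrast with the 9 of 10 members lowered. Of all genes, 3.62% were called lower and 5.74% higher there. In ChREBPβ KO 0 genes of any of the 6 surrounding lists were called, against 0.00772% of all genes. Of 22 tested genes of citrate and acetyl-CoA supply, 6 were called lower and 2 higher (median -0.02). The lowered ones lie between pyruvate and citrate: Pdha1 (-1.43, limma adjusted p 5.81e-09), Pdhb (-1.22, adjusted p 1.33e-08) and Dlat (-0.77) of pyruvate dehydrogenase, Mpc1 (-0.82) and Mpc2 (-0.60) of the mitochondrial pyruvate carrier, and the carboxylase Pcx (-0.81). Aco1, the cytosolic aconitase, rose by 0.36 and the mitochondrial malic enzyme Me2 by 0.28. Of 7 genes of cytosolic NADPH supply, Tkt (-1.87, adjusted p 1.16e-11), Taldo1 (-0.40) and Pgd (-0.39) of the pentose phosphate pathway fell, the NADP-dependent dehydrogenase Idh1 rose by 0.47, and G6pdx, its entry enzyme, gave 0.02 (adjusted p 0.942).

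Downstream, 1 of 15 elongation and desaturation genes fell: Elovl6, which lengthens palmitate (-3.34, limma adjusted p 1.11e-10), by more than any of the 10 members. Of all genes, 3.62% were called lower and 5.74% higher. Elovl1 rose by 0.27, and the desaturase Scd1 gave 0.05 (adjusted p 0.872). The 2 calls of this list became 1 without total ChREBP WT replicate 4 or total ChREBP KO replicate 1. Among 22 genes of the fate and control of malonyl-CoA, 3 fell, namely the AMP-activated kinase subunits Prkab1 (-0.72) and Prkaa2 (-0.57) and the phosphatase subunit Ppp2ca (-0.31). Cpt1a, the carnitine transferase that malonyl-CoA inhibits, rose by 0.90 (adjusted p 0.000695).

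Of 17 lipogenic transcription factors and their regulators, 4 fell and 3 rose, against 3.62% of all genes called lower and 5.74% called higher. Mlxipl fell by 1.75, Srebf1 by 0.71, Ppargc1b by 0.63 and the ChREBP partner Mlx by 0.57. Insig1 rose by 0.99, Nr1h3 by 0.40 and Rxra by 0.31. Sterol synthesis differed in direction from the fatty acid pathway, with 0 of 22 genes called lower and 8 called higher, against 5.74% of all genes called higher. Of these 8, Msmo1 rose by 0.97 (limma adjusted p 6.14e-07) and Hmgcs1 by 0.82 (adjusted p 0.00139). That count was sensitive to single arrays. It was 2 without total ChREBP KO replicate 1, 3 without total ChREBP KO replicate 3 or total ChREBP WT replicate 4, and 5 without total ChREBP KO replicate 4 or 7 or total ChREBP WT replicate 3. These lists were chosen for their place around the pathway and are described by their counts and medians alone.

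**Figure D5:**
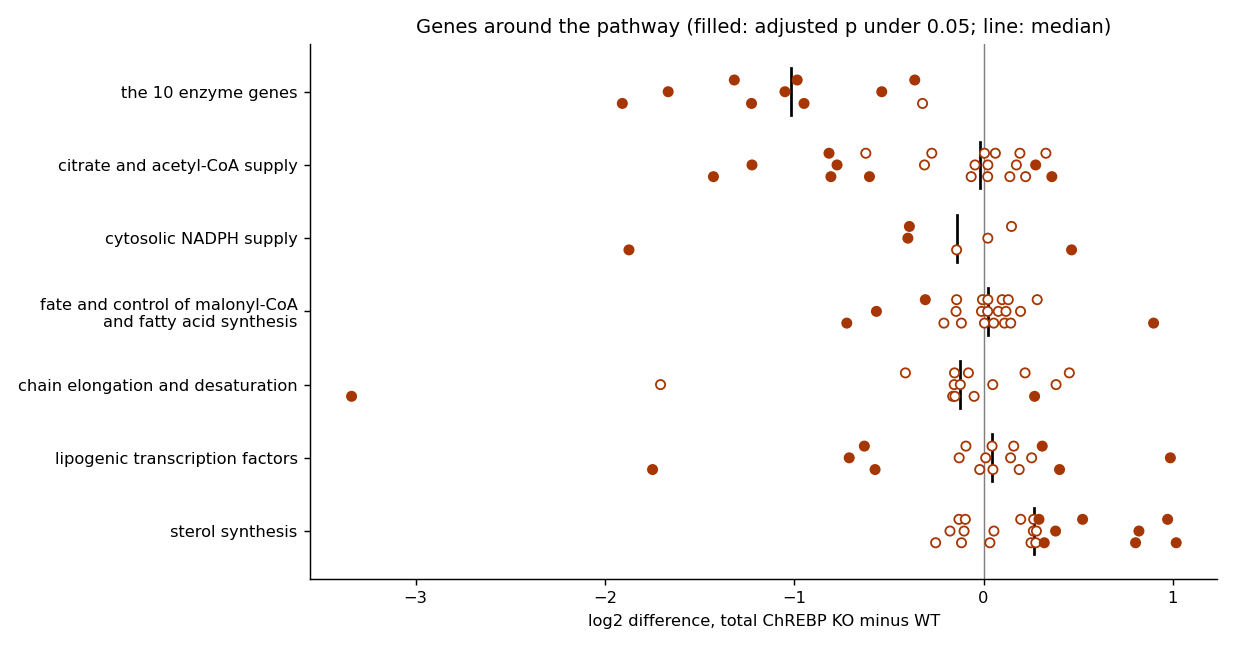
Log2 difference of total ChREBP KO minus WT for the 10 genes and for the tested genes of 6 surrounding lists, each point a gene by its brightest probe. Filled points have an adjusted p under 0.05 and black lines are medians. The median of the 10 genes is -1.02, and those of the lists lie between -0.14 (cytosolic NADPH supply) and 0.26 (sterol synthesis).

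Acacb and Aacs lie on chromosome 5, as Mlxipl does, their probes 20.9 and 9.62 Mb from the Mlxipl probe on mm9.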

How the data were processed

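RNA of pgWAT was hybridised by the authors to single-colour Agilent SurePrint mouse arrays, and each spot was measured with Feature Extraction 10.10.1.1, per the labels. The deposited scanner files gave median pixel intensity without background correction, local background and spot flags. The series table as deposited gave 40561 probes on a log2 scale, quantile normalised by the authors per their methods. Its columns correlated at 0.999986 or more with the normalised values computed here, with medians of 7.96. Depth has no counterpart here, and the number of arrays limits precision.

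Samples were grouped by title. Spots found, positive, significant and well above background on 81.25% of all arrays (21) or 75% of a group's arrays were kept (42315), the study's filter scaled to these arrays. Outlier spots were set to missing. Log2 intensities were quantile normalised, replicated probes merged by their median, and 39619 probes (25908 genes) fitted with limma 3.58.1 under R 4.3.3, with 4 groups and wash batch. P-values were adjusted by Benjamini-Hochberg over all probes. The script was tested on simulated data.

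Named genes were the 10 members, of each surrounding list the 3 largest called changes in each direction (all called genes where 5 or fewer), the 10 genes most like the mean member profile and Mlxipl. A gene that this rule names is not reported here. Dlat, Pcx, Mpc2, Mlx, G6pdx, Scd1 and the marker genes fall outside this rule and were added after their values were seen. Members and lists were chosen with earlier results of these data known. Alternatives were 13 settings and 25 fits that each left out 1 array. Replicate numbers did not pair the samples. Probe coordinates are mm9, by the array design, and promoters RefSeq's on GRCm38.p6.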

Additional observations from a re-analysis of the deposited data

Results flagged for a closer look

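Among the members, 8 had different effects of the deletions, by the interaction test: Acaca (-1.82), Acly (-1.55), Mid1ip1 (-1.18), Me1 (-1.04), Acacb (-0.93), Thrsp (-0.90), Slc25a1 (-0.86) and Fasn (-0.32), each lower in the total ChREBP line. Of all genes, 3.49% were called by this test and 2.15% were called in that direction. The calls of Slc25a1 and Fasn were lost in some of the other fits, given above and below. Of 40 sets of arrays (10 genes in 4 groups), 2 held an array set apart from the others by its gap relative to the group's range, about the number chance gives (1 in 20). Fasn in ChREBPβ WT had replicate 6 lowest (gap 0.99955 of the range), where the other 6 arrays shared the top level of this probe. Me1 in total ChREBP KO had replicate 7 highest (gap 0.749 of the range), and this array was the highest of its group for 9 of 10 members.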

How the results depend on the processing

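The number of members called was 0 in ChREBPβ KO under all 13 alternatives and 25 fits that left out an array, 8 to 9 in total ChREBP KO (8 from the processed signal, where Fasn was lost), 6 to 8 for the interaction and 7 to 9 between the wild types. Leaving out an array gave 0, 9, 7 to 8 and 8. The mean difference of the members between the wild types, 0.65, was 0.79 from the processed signal and 0.80 from the uncorrected intensity, both scaled to the 75th percentile. The latter setting was chosen after seeing the data. Replicate numbers did not pair the samples (correlations of same-numbered deviations -0.43 to 0.38 in the ChREBPβ line, -0.23 to 0.14 in the total ChREBP line and -0.13 to 0.27 between wild types, where 2 of 6 arrays matched their own number best). With the replicate block, 0, 1736, 504 and 5110 genes were called in the ChREBPβ, total ChREBP, interaction and wild-type comparisons, against 2, 2426, 903 and 5739 without it. The interaction then lost Slc25a1 (-0.84, adjusted p 0.0979) and Fasn (-0.31, adjusted p 0.121), and no other member call changed.

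Signs changed only for differences near 0. In ChREBPβ KO, Fasn was 0.0434 from the processed signal and 0.0164 from the uncorrected intensity, Me1 was 0.0038 with normexp, 0.00303 with array weights and 0.0508 with the hepatocyte covariate, and Acss2 was -0.00381 as the mean of all probes. Leaving out an array gave -0.0600 to 0.00015 for Fasn, -0.0789 to 0.0875 for Me1, -0.10 to 0.00087 for Thrsp and -0.0133 to 0.22 for Acss2 in ChREBPβ KO, and -0.0034 to 0.0267 for Fasn between wild types. Sterol synthesis calls were 5 without the dim-probe filter, 3 with the replicate block and 5 by probe means, and those of citrate supply were 5 with weight 1 on all arrays. Leaving out an array gave 1 to 3 elongation calls and 2 to 8 sterol synthesis calls. Elongation calls were 1 from both scaled signals, with the hepatocyte covariate and by probe means. The causes were not tested. Restricting the fit to the groups compared could not be run for the interaction.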
